A study of Mus musculus with 12 samples.

Results

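The genes described here are 36 genes of cholangiocyte ion, water and bile transport, taken by symbol from a list of genes with known roles in that transport, out of 54227 gene symbols in the deposited table. Cholangiocytes are the epithelial cells that line the bile ducts. The table holds 12 RNA-seq libraries from the livers of C57Bl/6 mice carrying a Sox9EGFP reporter transgene, all fasted for 16 h before the liver was digested to single cells. Cells were sorted by EGFP brightness into 4 populations of 3 libraries each, an EGFP-negative one (neg), the faintest positive gate, named GFPsublow in the labels (sub), a low gate (low) and a high gate (high). Each library came from 12000 sorted cells, and the study set the 3 positive populations and the negative cells against each other. No group was without the transgene, and the sources used here give neither the construct that drives EGFP nor the animals' age, sex or number. Nothing in the labels says that the 3 libraries of a population came from separate mice, so the p-values measure only the spread between these libraries, which may be technical.

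Bile duct cells modify bile by secreting fluid and bicarbonate. Secretin acts on its receptor, Sctr, to raise cyclic AMP and open the chloride channel Cftr, while calcium released through IP3 receptors opens the calcium-activated chloride channel Ano1. Chloride in the lumen is exchanged for bicarbonate, water follows through aquaporins, the sodium pump sustains the gradients, and separate carriers take bile acids and glucose back up from bile.

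Total reads per library lay between 8775387 and 15535588, and 1 read was worth 0.691 to 1.22 of the deposited normalised counts. Marker genes of the bile duct epithelium (15 genes, among them Epcam, Krt19 and Sox9) summed to between 1244 and 2952 normalised counts in neg, 30778 to 47236 in sub, then 99147 to 119180.0 in low and 88899.6 to 92355 in high. Sox9 is the gene that the sorting reporter is named for. Krt19 did not follow the sum in high, at 1415, 449 and 485 there against 3828, 710 and 846 in sub. Endothelial marker sums (10 genes) ran opposite to the bile duct sums, from between 99975 and 145320.0 in neg to between 555 and 899 in high. Hepatocyte marker sums were at most 1543 in neg, 6038 to 11536 in sub, 16176 to 24742 in low and 19231 to 24514 in high. Alb (10123, 13041 and 12616) and Ahsg (5018, 5118 and 5667) made up most of the high sums. Some markers went the other way, among them Apoa1 (406, 616 and 211 in neg, 7.8, 0 and 153 in high). Cyp2e1 (143, 12.2 and 0 in neg) was at 0 in all high libraries. Apoa2, Apoc3 and Cyp3a11 were at 0 in all 12. A listed 0 was not a reliable absence in this table: Rps6, a ribosomal protein gene of every cell, was listed at 0 in 5 of 12 libraries and Rpl3 in 1, although Eef1a1 never fell below 7728 (these genes were picked after their values were seen). For that reason values are given library by library in the order of the replicate numbers.

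Of the 36 transport genes, 27 had a mean of at least 10 normalised counts over the 12 libraries and were tested, and 22 had a mean of at least 100. Slc9a3, Slc51b, Gpbar1, Abcb11, Aqp4, Aqp8, Aqp9 and Fxyd2 were listed at 0 in every library, and Slc51a had 1 read in 1 neg library. In 18 of the 27 tested genes at least 1 population combined a library with at most 3 reads and a library at 100 or more. Counted by pairs of gene and population, 29 of 108 were mixed in this way (26.9%), against 33.2% of such pairs over all tested genes.

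The genes with the clearest differences were Slc5a1, which encodes the sodium-glucose cotransporter SGLT1, Atp1b1, the beta-1 subunit of the sodium pump, and Aqp1, a water channel. Slc5a1 spans chr5:33104219-33162870 on the plus strand of GRCm38 (mm10), Atp1b1 chr1:164437109-164458355 on the minus strand and Aqp1 chr6:55336432-55348555 on the plus strand, in the GENCODE M21 annotation, where all 36 genes are protein-coding. Their promoters are shown because Slc5a1 and Atp1b1 were high in the EGFP-positive gates in which Aqp1 was low or listed at 0. Each run holds the 250 bases before the RefSeq transcription start (GRCm38.p6), 5′ to 3′ on the gene's strand, with CG dinucleotides in capitals, at chr5:33103969-33104218 for Slc5a1, chr1:164458356-164458605 for Atp1b1 and chr6:55336049-55336298 for Aqp1.
Slc5a1: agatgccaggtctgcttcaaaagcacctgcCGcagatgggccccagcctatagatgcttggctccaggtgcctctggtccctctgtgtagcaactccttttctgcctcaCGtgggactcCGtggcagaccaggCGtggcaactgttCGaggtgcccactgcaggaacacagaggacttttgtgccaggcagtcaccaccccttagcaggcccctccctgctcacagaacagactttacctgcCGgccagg
Atp1b1: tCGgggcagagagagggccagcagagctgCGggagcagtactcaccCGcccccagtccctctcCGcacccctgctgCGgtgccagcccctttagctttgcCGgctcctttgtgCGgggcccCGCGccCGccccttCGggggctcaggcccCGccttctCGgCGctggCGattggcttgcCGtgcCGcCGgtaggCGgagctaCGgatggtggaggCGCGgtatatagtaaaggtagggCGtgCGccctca
Aqp1: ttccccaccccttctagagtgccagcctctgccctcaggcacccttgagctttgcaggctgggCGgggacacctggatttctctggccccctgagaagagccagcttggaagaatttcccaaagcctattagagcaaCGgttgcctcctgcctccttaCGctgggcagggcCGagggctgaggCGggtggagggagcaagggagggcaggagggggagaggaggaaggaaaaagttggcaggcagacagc
The Atp1b1 window held 24 CG dinucleotides and was 70.4% G or C, against 6 and 60.0% for Slc5a1 and 5 and 62.0% for Aqp1, while the medians over 32851 promoters were 6 and 52.4%. None of the 3 windows held the letters searched for on both strands, which were GTTAATNATTA (HNF1), GGAATG (TEAD) and ACAATG (SOX). Among the 28 transport genes with a promoter in the RefSeq table, the HNF1 letters occurred in Slc10a2 only (0.134% of all promoters), the TEAD letters in Abcb1a, Aqp8, Kcnn4 and Slc51b (12.6% of all) and the SOX letters in none (10.7% of all). A match of letters is a description and not a shown binding site.

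Summed over all 36 genes, the transport transcripts came to 21537 ± 1873 normalised counts in neg (mean ± SD, n = 3), 25034 ± 702 in sub, then 29043 ± 3539.6 in low and 31561 ± 2313 in high. The sum gave 0.202% of all normalised counts in neg and 0.2855% in high. Aqp1 alone supplied 39.55% of the transport sum in neg and 11.36% in sub, but 0.1563% and 0.6959% in low and high. Without Aqp1 the sums were 12922 ± 776, 22196 ± 1246, 29001 ± 3583 and 31331 ± 2093, with no overlap between neg, sub and the brighter gates. A sum of this kind cannot tell fewer cells of a type from less RNA per cell, and the same holds for each gene below.

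**Figure D1:**
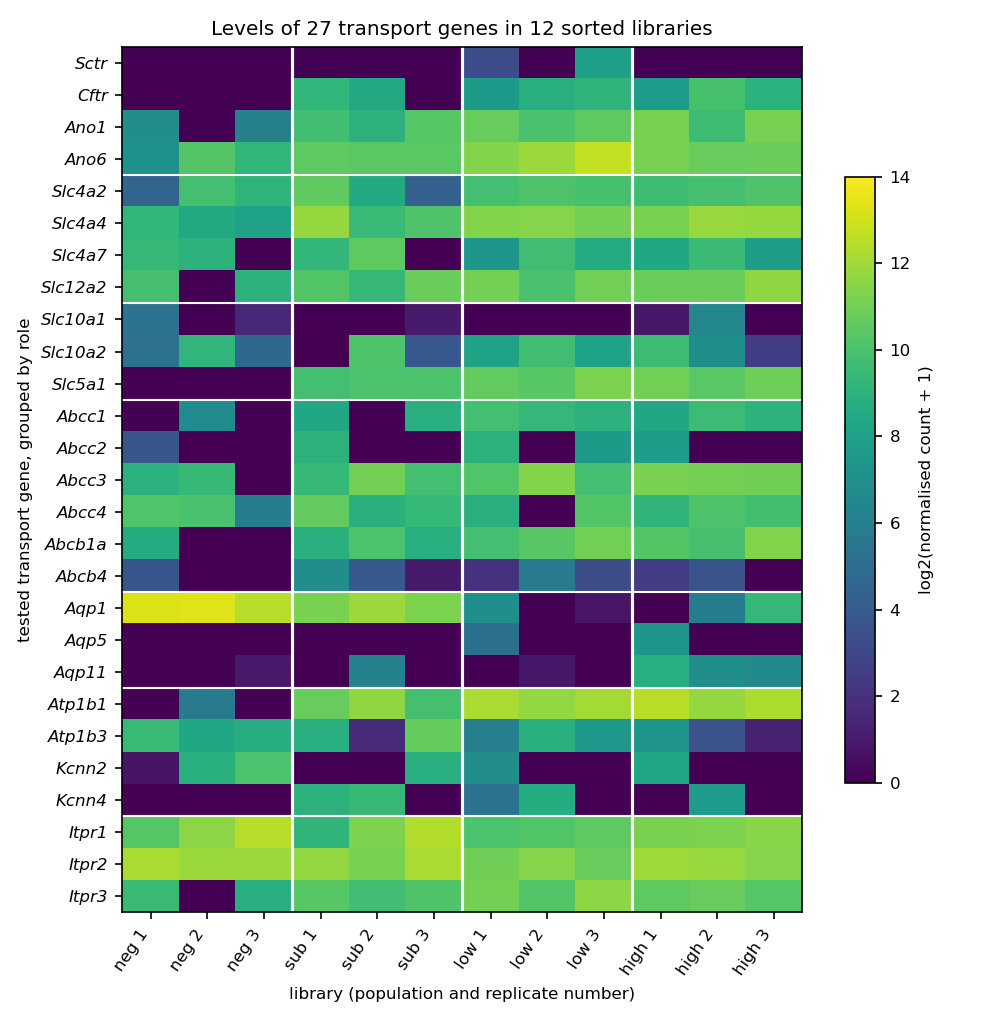
Levels of the 27 tested transport genes (rows, grouped by role with white lines) in the 12 libraries (columns), coloured by log2(normalised count + 1). Aqp1 is brightest in neg and sub, Slc5a1 and Atp1b1 are bright in sub, low and high, and dark cells inside bright rows are libraries listed at or near 0.

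The transport genes that passed the test differed from neg, most of them in low and high. In sub against neg, 2 of 27 were called at an adjusted p under 0.05 (limma, Benjamini-Hochberg over 16128 genes), both higher, against 1.19% of all tested genes (1.04% higher and 0.149% lower). In low against neg, 7 were called against 4.69% of all genes: Slc5a1, Atp1b1, Ano1, Ano6, Slc4a4 and Abcb1a rose (2.55% of all genes) and Aqp1 fell (2.15%). In high against neg, 7 were also called against 4.69%: Slc5a1, Atp1b1, Ano1, Slc4a4, Abcb1a and Cftr rose (2.44% of all genes) and Aqp1 fell (2.25%). No transport gene was called in low against sub (0.744% of all genes, 0.13% higher and 0.614% lower) or high against sub (0.986%, 0.118% higher and 0.868% lower), with 2 of 27 genes at an unadjusted p under 0.05 in each, against 10.2% of all tested genes in both. With edgeR, 1 transport gene (Aqp1) was called in low against sub among 179 genes in all and 0 in high against sub among 227. DESeq2, which gave no adjusted p for Aqp1 in any comparison, called 0 of the others among 1593 and 1485 genes in all. In high against low limma called none of the 16128 genes (0%), and 1 transport gene, Aqp11, and 684 genes in all had an unadjusted p under 0.05; edgeR and DESeq2 called 0 transport genes there among 34 and 646 genes in all. The median log2 change of the 27 genes was 1.72 in sub against neg, 2.70 in low against neg and 2.44 in high against neg, beside 0, 0 and 0.13 over all tested genes. A test of any difference among the 4 populations called 6 of 27 against 4.23% of all genes. The 3 comparisons with neg share its libraries and are given side by side, not as independent evidence.

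**Figure D2:**
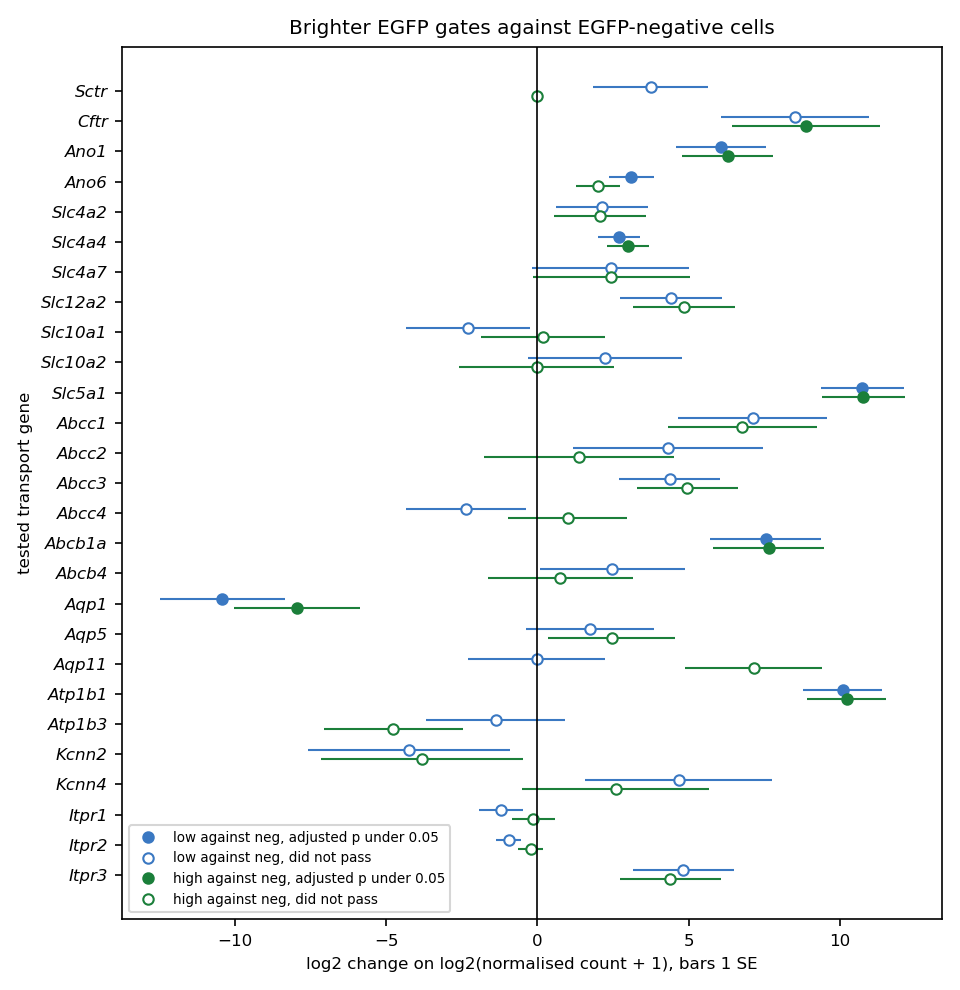
The log2 change of each tested transport gene in low (blue) and high (green) against neg, on the log2(normalised count + 1) scale, with bars of 1 SE; filled points passed an adjusted p of 0.05. Slc5a1 and Atp1b1 lie near 10, Aqp1 lies at -10.42 in low and -7.96 in high, and the open points include SEs of up to 3.35.

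Among the secretin receptor and the chloride channels, Ano1 rose in low and high, Ano6 in low and Cftr in high against neg, none passed in sub against neg with limma on all 12 libraries, and the receptor was detected in low only. Sctr was listed at 8.91, 0 and 239 in low and at 0 in the other 9 libraries. Cftr, the chloride channel mutated in cystic fibrosis, was listed at 0, 0 and 0 in neg, 595, 349 and 0 in sub, 196, 454 and 551 in low and 215, 963 and 489 in high. Every low and high library lay above every neg library, while sub overlapped with neg through sub 3. Cftr rose in high against neg by 8.87 ± 2.45 (log2 ± SE, n = 3 against 3, adjusted p = 0.0426), which is at least 151.5-fold when 3 reads in a library is taken as the floor. In low against neg the change was 8.52 with an adjusted p of 0.0523, at least 109.1-fold, and it passed in 6 of 24 alternatives: a minimum mean of 100 (0.0402), no variance trend (0.0469), edgeR (0.0462), DESeq2 (2.31e-06) and without sub 1 (0.0497) or sub 3 (0.0123). Sub against neg (5.89, adjusted p = 0.42) passed with DESeq2 (5.8e-06) and without sub 3 (0.0487). Floors cover counting error only, since reads copied by PCR are not independent molecules. The Cftr call in high held in 12 of 24 alternatives and was lost, among others, with no filter on low genes (0.0568), with edgeR on 10 libraries (0.0814) and without any single neg, low or high library (0.0561 to 0.154).

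Ano1, the calcium-activated chloride channel, was at 119.5, 0 and 68.6 in neg, 851, 512 and 1284 in sub, 1723, 1007 and 1454 in low and 2210.0, 811 and 2227 in high. All 9 EGFP-positive libraries exceeded all neg libraries. The change was 6.07 ± 1.49 in low (ratio of means 22.2, adjusted p = 0.0226) and 6.29 ± 1.49 in high (27.9, adjusted p = 0.0177) against neg, while sub against neg gave 5.34 (adjusted p = 0.11), which passed with DESeq2 (0.00788) and without neg 1 (0.0363). Without neg 2, the library listed at 0, the change fell to 3.895 in low and 4.115 in high against neg, and both still passed (adjusted p = 0.0292 and 0.0216). The call in low was lost without low 1 (0.0865), low 2 (0.0683) or low 3 (0.0867), and that in high without high 1 (0.0897) or high 3 (0.0961). Both were lost with no variance trend (0.074 and 0.0596) and in a fit of only the 2 populations compared (0.169 and 0.12).

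Ano6, which encodes a calcium-activated phospholipid scramblase and ion channel, stood highest in low. Its values were 142, 1229 and 607 in neg, 1450.3, 1353 and 1385 in sub, 2705, 3834 and 6658 in low and 2265, 1740.3 and 1779 in high. The 4 populations did not overlap, in the order neg, sub, high and low, and Ano6 was the only transport gene lower in high than in low without overlap (3.28% of all genes were lower without overlap). Ano6 rose in low against neg by 3.11 ± 0.73 (6.67-fold, adjusted p = 0.0164). In high against neg the change was 2.01 (adjusted p = 0.139) and in high against low -1.10 (adjusted p = 1). The call in low was lost without low 2 (0.0593) or low 3 (0.102), with no variance trend (0.17) and in the fit of 2 populations (0.083). Leaving out neg 2 gave a call in high against neg (0.0454).

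**Figure D3:**
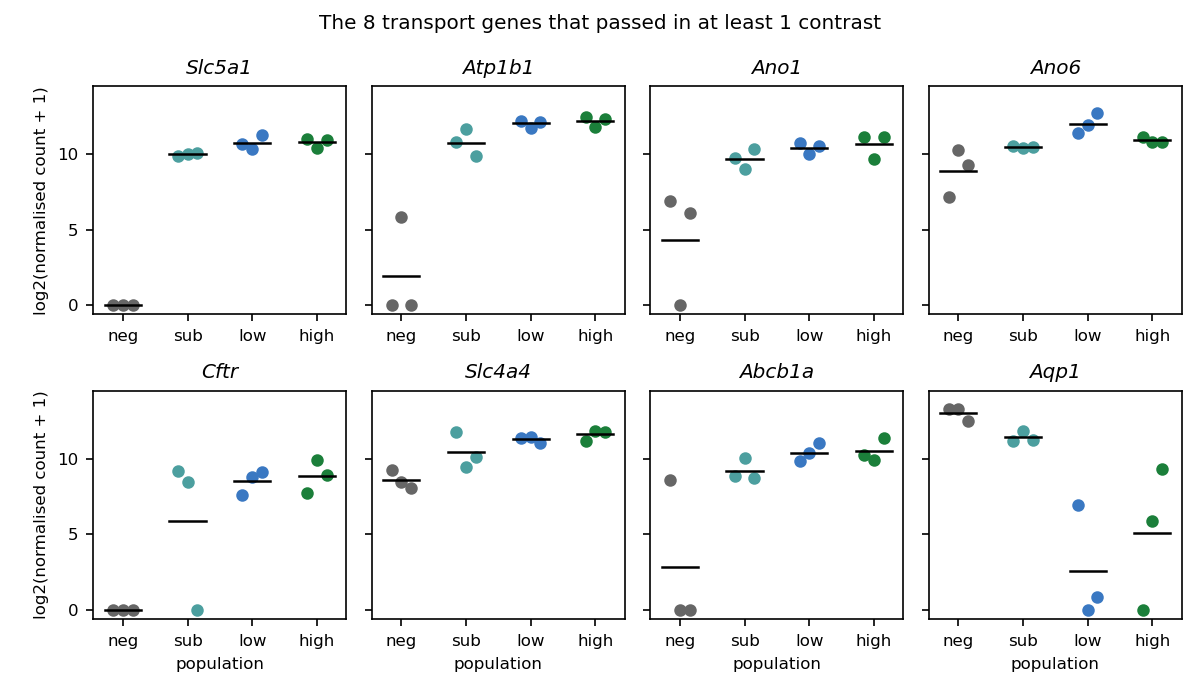
Values of the 8 transport genes called in at least 1 comparison, as log2(normalised count + 1) for each library (points) and the population mean (bar). Slc5a1 and Cftr are at 0 in all neg libraries, and Aqp1 is high in neg and sub and between 0 and 632 normalised counts in low and high.

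Of the bicarbonate, sodium and chloride transporters, Slc4a4 rose and the others did not pass. Slc4a4, a sodium-bicarbonate cotransporter, was at 620.4, 358 and 267 in neg, 3503, 690.4 and 1114 in sub, 2661, 2816 and 2163 in low and 2358, 3626 and 3581 in high. All EGFP-positive libraries lay above neg, and sub was the most spread. The change against neg was 2.70 ± 0.69 in low (6.14-fold, adjusted p = 0.0291) and 3.00 ± 0.69 in high (7.68-fold, adjusted p = 0.0145). Sub against neg gave 1.83 (adjusted p = 0.35) and passed with DESeq2 (0.0192). The low call was lost without neg 2 (0.0578), neg 3 (0.0756), low 1 (0.0885), low 2 (0.0958), low 3 (0.0722) or high 2 (0.0504), and the high call without high 2 (0.0749) or high 3 (0.0716). Without the variance trend both were lost (0.202 and 0.147), and the fit of 2 populations lost the low call (0.0742).

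Slc12a2, the sodium-potassium-chloride cotransporter that loads epithelial cells with chloride, was at 937, 0 and 507 in neg, 1159, 651 and 1751 in sub, 2122, 1025 and 2093 in low and 1846, 1871 and 3323 in high. Low and high did not overlap with neg, but the change of 4.85 ± 1.69 in high against neg (ratio of means 4.88) did not pass (adjusted p = 0.119). Without neg 2, the library listed at 0, it was 1.71 (adjusted p = 0.251), with edgeR 2.35 (0.371), and without neg 1 it was 6.64 and passed (0.0444). Slc4a2, the chloride-bicarbonate exchanger of the apical membrane, was at 22.8, 892 and 548 in neg, 1549, 376 and 19.9 in sub, 912, 1109 and 968 in low and 808, 921 and 1130.3 in high. The low and high libraries of Slc4a2 were close together and the neg and sub libraries were far apart, and no comparison passed (adjusted p of 0.548 or more). Slc4a7, another sodium-bicarbonate cotransporter, was at 634, 534 and 0 in neg, 618, 1489.5 and 0 in sub, 160.3, 822 and 395 in low and 331, 751 and 219 in high, with all populations overlapping. The sodium-proton exchanger Slc9a3 was listed at 0 throughout.

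Among the bile acid and glucose carriers, Slc5a1 separated neg from every EGFP-positive library. Slc5a1 was listed at 0 in all 3 neg libraries and stood at 916, 1041 and 1066 in sub, 1611, 1312 and 2425 in low and 2073, 1374 and 1920.1 in high. Sub lay below low and high with no overlap, and low and high overlapped. Slc5a1 rose against neg by 9.98 ± 1.37 in sub (adjusted p = 0.00024), 10.75 in low (5.21e-05) and 10.78 in high (4.84e-05), at least 274.7-fold, 485.9-fold and 487.7-fold with the floor of 3 reads. The change from sub to low was 0.78 (adjusted p = 0.905). The calls in low and high held in all 24 alternatives, and that in sub in 23, with an adjusted p of 0.265 in the fit of 2 populations. Gm15936 and 5033423K11Rik, annotated across Slc5a1, were at 0 in every library.

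The bile acid carriers gave little signal. Slc10a2, the sodium-dependent bile acid transporter of the apical membrane, was at 37.3, 600.5 and 25.1 in neg, 0, 1143 and 13.0 in sub, 272, 822 and 275 in low and 763, 125 and 4.90 in high. All populations overlapped, and no comparison passed (adjusted p of 0.674 or more). Slc10a1, the hepatocyte uptake transporter NTCP, reached at most 89.9, in high 2, and was at 0 in the low libraries. Slc51b and the bile acid receptor gene Gpbar1 were listed at 0 in all libraries and Slc51a, the partner of Slc51b in basolateral bile acid export, had a single read. Protein-coding genes with under 1500 exonic bases, which include Slc51b (709 bases) and Gpbar1 (1075), were at 0 in all 12 libraries in 75.8% of cases, against 9.41% of those with at least 5000. Abcb11, Slc9a3 and Aqp4 were at 0 with 5146, 5504 and 6233 exonic bases.

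Of the ABC exporters, Abcb1a was called. Abcb1a encodes a P-glycoprotein, a drug efflux pump, and was at 388, 0 and 0 in neg, 466, 1048 and 434 in sub, 909.9, 1319.5 and 2112 in low and 1233, 960.1 and 2664 in high. All EGFP-positive libraries exceeded neg. Abcb1a rose against neg by 7.55 ± 1.83 in low (ratio of means 11.2, adjusted p = 0.0208) and 7.65 ± 1.83 in high (12.5, adjusted p = 0.0185). edgeR (0.324 and 0.282) and DESeq2 (0.143 and 0.123) on the recovered reads did not call either, nor did edgeR on 10 libraries (0.126 and 0.0949), the fit without a variance trend (0.0692 and 0.0611) or the fit of 2 populations (0.165 and 0.131). Without a filter on low genes the low call was lost (0.0521). The low call was also lost without neg 2 (0.0801), neg 3 (0.0798), low 1 (0.0608), low 2 (0.0791) or low 3 (0.0993), and the high call without neg 2 (0.0742), neg 3 (0.0751), high 1 (0.0723), high 2 (0.0649) or high 3 (0.107). Without neg 1, the neg library in which Abcb1a was detected, a call in sub against neg was gained (0.00105). Reads may be split with the close paralog Abcb1b. Summed over both, the values were 426, 80.7 and 399.9 in neg, 466, 1048 and 864 in sub, 909.9, 1319.5 and 2114 in low and 1288, 960.1 and 3599 in high, again with no overlap between neg and the other populations.

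Abcc3, an organic anion exporter of the basolateral membrane, was at 487, 671 and 0 in neg, 671, 2141 and 893 in sub, 1187, 2735 and 904 in low and 2305, 2158 and 1987 in high. High and low lay above neg with no overlap, and the change in high against neg was 4.96 ± 1.68 (adjusted p = 0.106). Abcc1, a related exporter, was at 0, 108 and 0 in neg, 331, 0 and 461 in sub, 899, 634 and 503 in low and 336, 788 and 539 in high. Low and high again did not overlap with neg, with an adjusted p of 0.122 in low that became 0.0411 without sub 2. Abcc4, a cyclic nucleotide and organic anion exporter, was at 1195, 1000.4 and 57.9 in neg, 1590.4, 465 and 675 in sub, 438, 0 and 1184 in low and 576, 1129 and 862 in high, with every population overlapping. Abcc2, the exporter of conjugated bilirubin, was at 11.7, 0 and 0 in neg, 508, 0 and 0 in sub, 509, 0 and 198 in low and 219.8, 0 and 0 in high, so that each population held a library listed at 0. Abcb4, the phosphatidylcholine floppase, reached at most 117, and Abcb11, the bile salt export pump of hepatocytes, was at 0 throughout.

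Aqp1 ran against the other called genes. Its values were 10004, 10017 and 5823 in neg, 2327, 3746 and 2441 in sub, 124, 0 and 0.822 in low and 0, 58.6 and 632 in high. Neg lay above sub, and sub above every low and high library, with no overlap, while low and high overlapped. Aqp1 fell by 10.42 ± 2.08 on the log2 scale in low against neg (207.2-fold between means, adjusted p = 0.00529) and by 7.96 ± 2.08 in high against neg (37.4-fold, adjusted p = 0.0317). Sub against neg gave -1.59 (3.04-fold lower, adjusted p = 0.821), low against sub -8.83 (adjusted p = 0.0533) and high against sub -6.37 (adjusted p = 0.196). The call in low against neg held in all 23 alternatives that gave a value, with an adjusted p of 0.0362 at most. DESeq2 gave no adjusted p for Aqp1, in this comparison or in high against neg. The call in high against neg was lost in 11 of 23, which were no filter (0.082), no variance trend (0.0957), the fit of 2 populations (0.0579) and leaving out neg 1 (0.107), neg 2 (0.115), neg 3 (0.0914), sub 1 (0.0555), sub 2 (0.0516), sub 3 (0.0515), high 1 (0.138) or high 2 (0.0774). Over the 23 alternatives the log2 change in high against neg ranged from -10.08 to -4.704. Most of the high mean behind the 37.4-fold ratio came from high 3 (632). Low against sub became a call with edgeR (0.015), with a pseudocount of 5 (0.0123), after quantile normalisation (0.0494) and without low 1 (0.0264), high 1 (0.0178) or high 3 (0.0496). In the fit of only sub and neg, Aqp1 was called lower in sub (0.0425).

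Aqp1 is known both in bile duct epithelium and in the endothelium of small vessels. The endothelial marker sum, like Aqp1, was higher in neg and sub than in low and high. From low to high the 2 did not go together. The Aqp1 mean was 41.6 in low and 230 in high, and high 3, with Aqp1 at 632, had an endothelial sum of 555. The endothelial sum was 122266 ± 22682 in neg, 34083 ± 2973 in sub, then 1409 ± 629 in low and 677 ± 193 in high (mean ± SD, n = 3), with all 10 markers called lower in low against neg and 9 in high against neg. In sub, low and high the sums lay between 32159 and 37507, 756 and 2011, and 555 and 899. A stellate and mesenchymal sum of 10 genes was 29086 in neg, 29231 in sub, then 1499 in low and 1114 in high, while the biliary sum went from 1869 in neg to 105860.0 in low. The part of these cells in the Aqp1 difference was not tested.

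**Figure D4:**
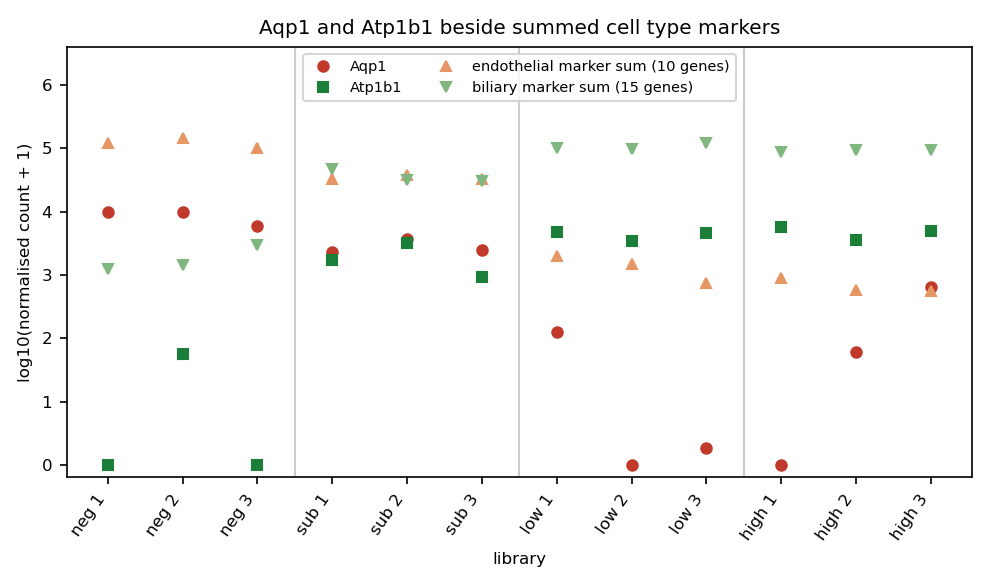
Aqp1 and Atp1b1 in each library beside the summed endothelial (10 genes) and biliary (15 genes) markers, as log10(normalised count + 1). Aqp1 and the endothelial sum are both highest in the 3 neg libraries and lower in all low and high libraries, whereas Atp1b1 and the biliary sum are lowest in neg.

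The other aquaporins were sparse. Aqp11, an intracellular aquaporin, was at 433, 123 and 103 in high, above every other library, the next being 69.8 in sub 2; the other low, sub and neg libraries had at most 1 read. The change in high against low was 7.18 ± 2.27 (unadjusted p = 0.00514, adjusted p = 1), and in high against neg the adjusted p was 0.0832, which became 0.0304 with DESeq2, 0.0305 without the variance trend and 0.0427 without sub 2. Aqp5 was detected in low 1 (35.6) and high 1 (162) only, and Aqp4, Aqp8 and Aqp9 were listed at 0.

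Among the sodium pump subunits and potassium channels, Atp1b1 rose in every EGFP-positive population. It was at 0, 56.3 and 0 in neg, 1739, 3223 and 927 in sub, 4722, 3450.4 and 4513 in low and 5688, 3501 and 5008 in high. The 3 levels of neg, sub and the brighter gates did not overlap, and low and high did. The change against neg was 8.81 ± 1.31 in sub (ratio of means 104.7, adjusted p = 0.000548), 10.09 in low (225.5, adjusted p = 6.7e-05) and 10.23 in high (252.4, adjusted p = 5.14e-05). The calls in low and high held in all 24 alternatives and that in sub in 23, the fit of 2 populations giving 0.251. Nme7, which overlaps Atp1b1 on the opposite strand, ranged from 0 to 411 across the libraries.

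Atp1b3, the beta-3 subunit of the pump, had no such pattern. Its values were 709.6, 320.4 and 419 in neg, 434, 2.29 and 1663 in sub, 63.1, 471 and 177 in low and 148, 11.1 and 1.63 in high. High lay below neg with no overlap, but the change of -4.77 ± 2.30 did not pass (adjusted p = 0.309). The calcium-activated potassium channels were patchy: Kcnn2 was at 0.691, 471 and 1051 in neg, 0, 0 and 449.9 in sub, 119, 0 and 0 in low and 300.3, 0 and 0 in high. Kcnn4 was at 0, 0 and 0 in neg, 501, 674 and 0 in sub, 39.3, 406 and 0 in low and 0, 213 and 0 in high. Neither channel was called with limma or edgeR, while DESeq2 called Kcnn4 in all 3 comparisons with neg (3.16e-08, 1.76e-07 and 6.76e-07), although each positive population held a library listed at 0. Fxyd2, the gamma subunit of the pump, was listed at 0.

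None of the IP3 receptors was called, and Itpr1 and Itpr2, but not Itpr3, were above 3 reads in all 12 libraries. Itpr2, which encodes the type II receptor, was at 4719, 3762 and 3811 in neg, 3396, 2279.5 and 4802 in sub, 1964, 2820.0 and 1688 in low and 4047, 3637 and 2855 in high. Low lay below neg and below high with no overlap, but only by 1.90-fold and 1.63-fold, with adjusted p of 0.252 and 1. Itpr1 was at 1266, 3048 and 5799 in neg, 564, 2549.7 and 5345 in sub, 1054, 1183 and 1449 in low and 2336, 2406 and 2947 in high. The low and high libraries of Itpr1 were tight and apart from each other, the sub libraries covered the range of both, and low 1 and low 2 lay below every neg library. Itpr3, the type III receptor known near the apical membrane of cholangiocytes, was at 750.3, 0 and 462 in neg, 1313, 845 and 1119 in sub, 2142, 1173 and 3138 in low and 1490.1, 1741 and 1250.4 in high. Every EGFP-positive library of Itpr3 lay above every neg library, with changes of 4.82 ± 1.67 in low (ratio of means 5.32, adjusted p = 0.122) and 4.40 in high (3.70, adjusted p = 0.164). Without neg 2, the library listed at 0, the change in low was 1.76 (adjusted p = 0.229), and without neg 1 it was 6.53 and passed (0.0464).

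Counts of genes whose 3 libraries lay wholly above or below the other population's 3 were read against the same count over all genes. In sub against neg 7 of 27 transport genes lay above without overlap, against 4.69% of all genes, and Aqp1 below, against 4.99%. In low against sub 4 lay above (Abcc1, Ano6, Atp1b1 and Slc5a1), against 5.75%, and Aqp1 below, against 5.99%. In low against neg 12 of 27 transport genes lay above without overlap, against 8.38% of all genes, and 2 lay below (Aqp1 and Itpr2), against 8.52%. In high against neg 12 lay above, against 10.2% of all genes, and 2 below (Aqp1 and Atp1b3), against 8.61%. In high against low 3 lay above (Aqp11, Itpr1 and Itpr2), against 4.06%, and 1 below (Ano6), against 3.28%. In high against sub 5 lay above (Ano6, Aqp11, Atp1b1, Slc12a2 and Slc5a1), against 7.2%, and Aqp1 below, against 5.91%.

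Summed by role, 5 of the 7 groups were higher in low and high than in neg with no overlap. The secretin receptor and chloride channel sum was 722 ± 485 in neg, 2593 ± 347 in sub, then 6277 ± 2298 in low and 4233 ± 630.3 in high, with Ano6 the main part of the low value. The bicarbonate, sodium and chloride transporter sum went from 1773 ± 446 in neg to 6922 ± 1471 in high. The bile acid and glucose carrier sum went from 235 ± 318 to 2117 ± 646, but without Slc5a1 it reached 600.5 in neg and lay between 4.90 and 764 in high, with overlap. The ABC exporter sum went from 1310.3 ± 1096 to 5258 ± 713 and the pump and potassium channel sum from 1009 ± 405 to 4957 ± 1206. Atp1b1 made up nearly all of the latter, and without it the sum was lower in high than in neg, at 225 ± 223 against 990.5 ± 417. Without the gene that contributed most normalised counts to the sum over low and high (Ano6, Slc4a4 and Abcc3), with no correction for gene length, the channel, bicarbonate transporter and exporter sums of low and high still lay above neg with no overlap. The aquaporin sum lay outside this pattern, with 8615 ± 2417 in neg and 53.7 ± 91.6 in low, as did the IP3 receptor sum, with 7872 ± 1905 in neg, 7404 ± 3351 in sub, then 5537 ± 639 in low and 7570.1 ± 450.4 in high. The sums are descriptions without a test.

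**Figure D5:**
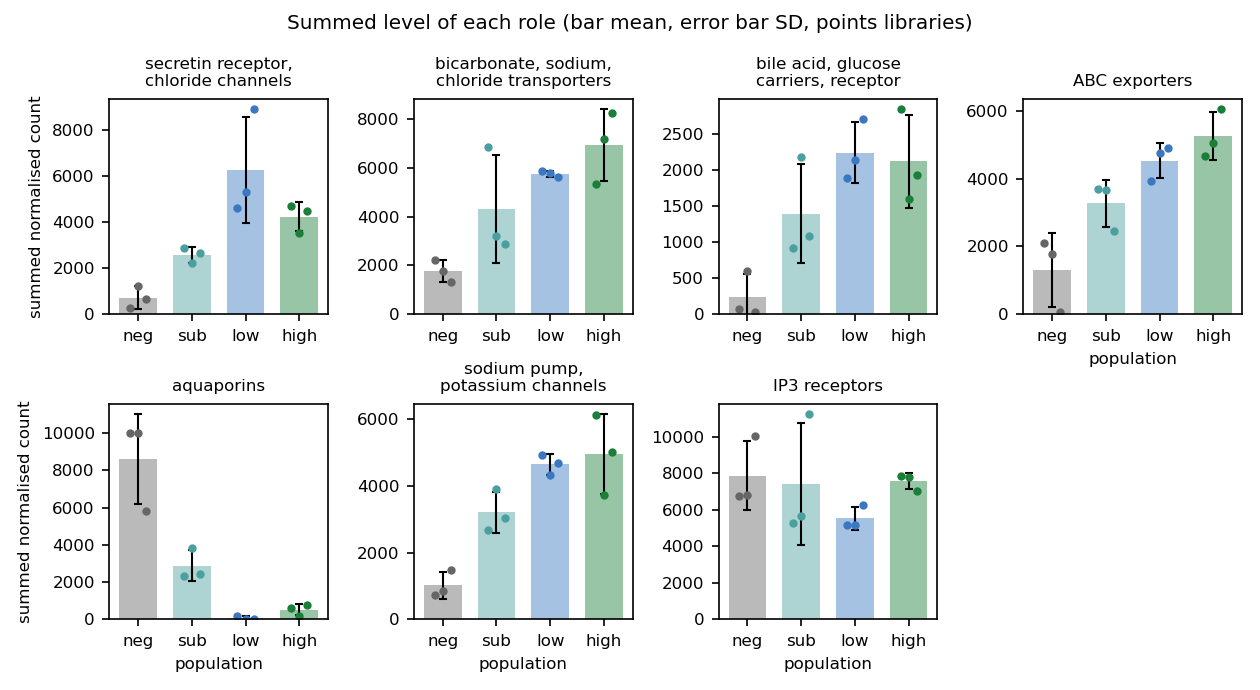
Summed normalised counts of each role in the 4 populations (bar, mean; error bar, SD; points, the 3 libraries). The channel, transporter, exporter and pump sums are lowest in neg (the pump sum through Atp1b1 and the carrier sum through Slc5a1), the aquaporin sum is highest in neg, and the mean IP3 receptor sums lie between 5537 and 7872.

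Per kilobase of annotated exon, Aqp1 led in neg with a mean of 3279 normalised counts per kilobase, followed by Itpr2 with 276.8 and Atp1b3 with 202.2. In sub Aqp1 stood at 1080 and Atp1b1 at 637.1. In low Atp1b1 led with 1372, ahead of Slc5a1 with 434.4 and Ano6 with 358.5, and in high Atp1b1 led with 1536, ahead of Slc5a1 with 436 and Abcc3 with 377.3.

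Beyond the 36 genes, a list of 36 other genes of biliary secretion had 29 tested members. In low against neg 5 rose, among them Car2, Ezr, Kcnma1 and Slc4a3, beside 2.55% of all tested genes, and 2 fell (Adcy5 and Vipr1), beside 2.15%. In high against neg 4 rose, among them Ezr, Kcnma1 and Slc4a3, beside 2.44% of all genes, and the same 2 fell, beside 2.25%. Kcnma1, a calcium-activated potassium channel, was at 0 in all neg libraries, 586, 1057 and 757 in sub, 1549, 4688 and 2670.3 in low and 3835, 3623 and 6009 in high (adjusted p = 0.00014 in sub against neg). Adcy5, an adenylyl cyclase, was at 173, 1112 and 608.5 in neg, 729, 886 and 1153 in sub and at 0 in all low and high libraries, with a fall in low against neg (adjusted p = 0.0249) and in low against sub (adjusted p = 0.0472). Vipr1, a receptor of vasoactive intestinal peptide, was at 1157, 468 and 1010.2 in neg and 217, 0 and 1034 in sub. It was listed at 0 in all low and high libraries (limma adjusted p = 0.0398 and 0.0394 against neg).

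Of 16 other hepatocyte transport genes, 8 were tested. Slc2a2, the glucose transporter GLUT2, was at 0.691, 0 and 0 in neg, 1903, 1520.4 and 1569 in sub, 3214, 2862.5 and 3442 in low and 1780.0, 4025 and 3085 in high, and rose in all 3 comparisons with neg. Slco2b1, an organic anion uptake transporter, was at 765, 3207 and 897 in neg, 623, 2219 and 2504 in sub, 54.2, 0 and 0 in low and 0 in all high libraries, and fell in low and high against neg (adjusted p = 0.0372 and 0.01). Slco2b1 also fell in high against sub (limma adjusted p = 0.0293). Over all tested genes, 1.04% were called higher in sub, 2.55% in low and 2.44% in high against neg. Called lower were 2.15% in low against neg, 2.25% in high against neg and 0.868% in high against sub. The other 6 tested genes of that list were called in no comparison.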

How the data were processed

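RNA from 12000 FACS-sorted cells per library was treated with DNase for 30 min and made into stranded total RNA libraries with the SMARTer Pico v2 kit, per the labels' protocols. The authors deposited normalised counts per gene (unit signal); the submitters' processing notes name Salmon, DESeq2 1.26.0 and the mm10 build. Every value was a whole multiple of the library's smallest step, within 0.01, in 100% of values, so reads were recovered; in sub 3 and high 2 the step lay near 1, where whole reads and normalised counts are hard to tell apart, and a count test was also run without those libraries. Because the values are normalised, the main test was limma 3.58.1 (R 4.3.3) with a variance trend on log2(normalised count + 1), fitted to all 12 libraries and 16128 genes with a mean of at least 10, with 6 two-sided contrasts, an F test and Benjamini-Hochberg adjustment at 0.05. A change on that scale understates that of low genes, and a single library listed at 0 can make it far larger than the ratio of means. Alternatives included edgeR 4.0.16 and DESeq2 1.42.0 on the recovered reads, other pseudocounts, filters and scalings, and each library left out. The fitting script was tested on simulated data. Values per library are printed for transport genes with a mean of at least 100 or a call in any contrast; called genes of other lists are named, at most 3 per direction with values. The genes and lists were chosen with earlier results of these data known. Of the table's symbols, 52258 of 54227 matched GENCODE M21. One called gene of those lists is not reported here.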

Additional observations from a re-analysis of the deposited data

How the results depend on the processing

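The main counts of called transport genes were 2 (sub against neg, of 192 genes), 0 (low against sub, of 120), 0 (high against low, of 0), 7 (low against neg, of 757), 7 (high against neg, of 757), 0 (high against sub, of 159) and 6 (over all populations, of 682). In brackets after the alternatives' counts stand those over all genes. Without a variance trend the counts were 4 in low against neg (of 617 genes), 4 in high against neg (of 692) and 2 over all populations (of 590). In fits of only the 2 populations compared they were 1 in sub against neg (Aqp1, of 73), 3 in low against neg (of 435) and 4 in high against neg (of 856). With no filter on low genes 3 passed over all populations (of 544). edgeR on the recovered reads gave 1 in low against sub (of 179) and 3 over all populations (of 611). edgeR on 10 libraries, without sub 3 and high 2, was chosen after seeing the data and gave 1 in each of low against sub, high against low and high against sub (Aqp1 each time, of 275, 72 and 273 genes) and 3 over all populations (of 724). DESeq2 called 6 in sub against neg among 1698 genes in all. A pseudocount of 5 and quantile normalisation each gave 1 in low against sub (of 173 and 91). With 1 library left out, counts lay between 2 and 4 for sub against neg (of 135 to 239), 0 and 1 for low against sub (of 10 to 126), 0 and 0 in high against low (of 0 to 4), 3 and 8 in low against neg (of 445 to 763), 3 and 7 in high against neg (of 424 to 773), 0 and 0 in high against sub (of 46 to 176), and 3 and 6 over all populations (of 509 to 686). The filter was recomputed in those fits and in the fits of 2 populations, so the genes tested differ. Quantile normalisation moved the median log2 change of all genes from 0.13 to 0 in high against neg and from 0.20 to 0.04 in high against sub. Of 162 pairs of gene and contrast, 33 were called in at least 1 fit. Among the 785 alternative values of those 33, 683 stayed on their side of the threshold, 32 passed it and 70 no longer did; none changed direction after a call. The cause of these differences was not tested.

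Libraries share replicate numbers across populations, and the column names share a suffix of unstated meaning. Deviations from the population means correlated between -0.0161 and 0.0266 for the same number (median 0.0114). For different numbers they correlated between -0.0447 and 0.0234 (median -0.00364). Correlations this small cannot decide whether the numbers are pairs. Because the labels do not say what a number stands for, the main fit did not take the numbers as pairs. With a replicate block the counts were 2 for sub against neg (of 180), 7 for low against neg (of 720), 6 in high against neg (of 715) and 5 over all populations (of 621), and Cftr in high against neg was no longer called (0.0514). With 3 libraries a population and a median SE of 2.4 on the log2 scale over all genes in low against neg, differences of a few fold were not detectable for most genes, and a listed 0 does not show absence.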
